A study of Mus musculus with 8 samples.

Results

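The receptors, G protein alpha subunits and RGS proteins of mouse stomach epithelium were compared in organoids with and without an active form of YAP. The set holds every row of the deposited count table whose symbol follows the names of orphan-type receptors (Gpr and a number), GPRC5 receptors, adhesion receptors (Adgr), somatostatin receptors (Sstr), G alpha subunits (Gna) and regulators of G protein signalling (Rgs). The symbol alone chose them, and 150 of 56691 rows matched: 76 Gpr, 4 Gprc5, 27 Adgr, 5 Sstr, 17 Gna and 21 Rgs. One of the 17, Gnasas1, is by its symbol an antisense RNA of the Gnas locus and no subunit gene; it had 12 counts over the YAP5SA and 7 over the Ctrl libraries.

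A G protein-coupled receptor, or GPCR, activates a heterotrimer of an alpha, a beta and a gamma subunit. The alpha subunit decides the effect: Gs raises cyclic AMP, Gi lowers it, Gq activates phospholipase C beta, and G12 and G13 activate RhoA. RGS proteins end the signal by speeding GTP hydrolysis on the alpha subunit. Adhesion receptors carry long extracellular parts that bind matrix or neighbouring cells. In many cell types receptors coupled to G12, G13 and Gq are known to activate YAP, and those coupled to Gs to restrain it. In the stomach, somatostatin, histamine, acetylcholine and prostaglandins act through such receptors on acid and mucus secretion.

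The YAP5SA cultures had the genotype Shh-Cre;YAP5SA (4 libraries) and the control cultures Shh-Cre (Ctrl, 4 libraries). YAP5SA is a YAP protein whose inhibitory phosphorylation sites are mutated, expressed where the Shh promoter drives Cre, so both groups carry Cre. All were grown in 3 dimensions from the hindstomach, the glandular stomach, of embryos at day 18.5, for 5 days in growth medium and 7 more days in differentiation medium. The labels name no litter, embryo or culture date, so the p-values measure the spread between these samples, which may be technical.

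Total counts were 17387372 to 21039926 per YAP5SA library and 18225648 to 25841256 per Ctrl library. Levels are given as CPM, counts divided by the library's total and scaled to a common size with TMM factors, and differences as log2 fold changes of YAP5SA over Ctrl. Yap1 itself was at 140 ± 2.22 CPM in YAP5SA and 118 ± 11.04 CPM in Ctrl (SD, n = 4 each); the row may mix endogenous and transgenic reads. The groups also differed in sex-linked RNA: summed counts of the Y-linked Kdm5d, Uty, Ddx3y and Eif2s3y were 7452 to 8988 in YAP5SA and 0 in every Ctrl library, and Xist had 0 to 8 counts in YAP5SA against 8436 to 12237 in Ctrl. Genotype and sex of the source cannot be told apart in any value below. Of the fixed markers of glandular epithelium all 6 were tested, and their summed level was 9789 to 11546 CPM in YAP5SA and 18491 to 20760 CPM in Ctrl. Pit cell markers (Muc5ac, Gkn1, Gkn2 and Tff1) summed to 3337 to 4954 CPM in YAP5SA and 34057 to 57524 CPM in Ctrl. In bulk RNA, fewer cells of a type and less RNA per cell cannot be told apart, and the part of the pit cell difference in the results below was not tested. Markers of mesenchyme summed to at most 0.821 CPM in YAP5SA and 0.415 CPM in Ctrl, and those of endothelium to at most 0.730 CPM in YAP5SA and 1.81 CPM in Ctrl. Enteroendocrine markers summed to 8.95 to 13.3 CPM in YAP5SA, nearly all Tph1, and 0.584 to 0.959 CPM in Ctrl, and those of neurons and glia to 2.18 to 3.33 CPM in YAP5SA and 4.92 to 6.15 CPM in Ctrl.

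Of the 150 genes, 34 had no count in any library, 61 had between 1 and 69 counts and failed the test's filter on low counts, and 55 were tested. Among these 55, 15 rose and 24 fell in YAP5SA at an edgeR adjusted p under 0.05, and 16 were not called. The share called was 70.9%, against 64.5% of all 13812 genes tested. Higher calls made up 27.3% against 33.1% of all genes, and lower calls 43.6% against 31.3%. The median log2 fold change was -0.01, against 0.02 over all genes, and the median size regardless of sign was 0.88 against 0.52. The 4 libraries of one group lay wholly above the other's for 35 of the 55 (63.6%, against 58.7% of all genes). Scaling by library size alone shifted the median of all genes to 0.19 and called 25 members higher and 23 lower. Members called with that scaling and not with TMM were Adgrl2, Gnai2, Gnal, Gnas, Gpr63, Gpr89, Gpr107, Gpr137, Rgs12 and Rgs19, each higher in YAP5SA, and Gpr180 was no longer called. Of the 55, 25 share exon bases with another gene, and 9 do so over more than 10% of their length (Adgre5, Adgrl1, Gna12, Gnas, Gpr137, Gpr39, Gpr89, Gprc5b and Rgs16), so their values could hold reads of a neighbour.

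**Figure D1:**
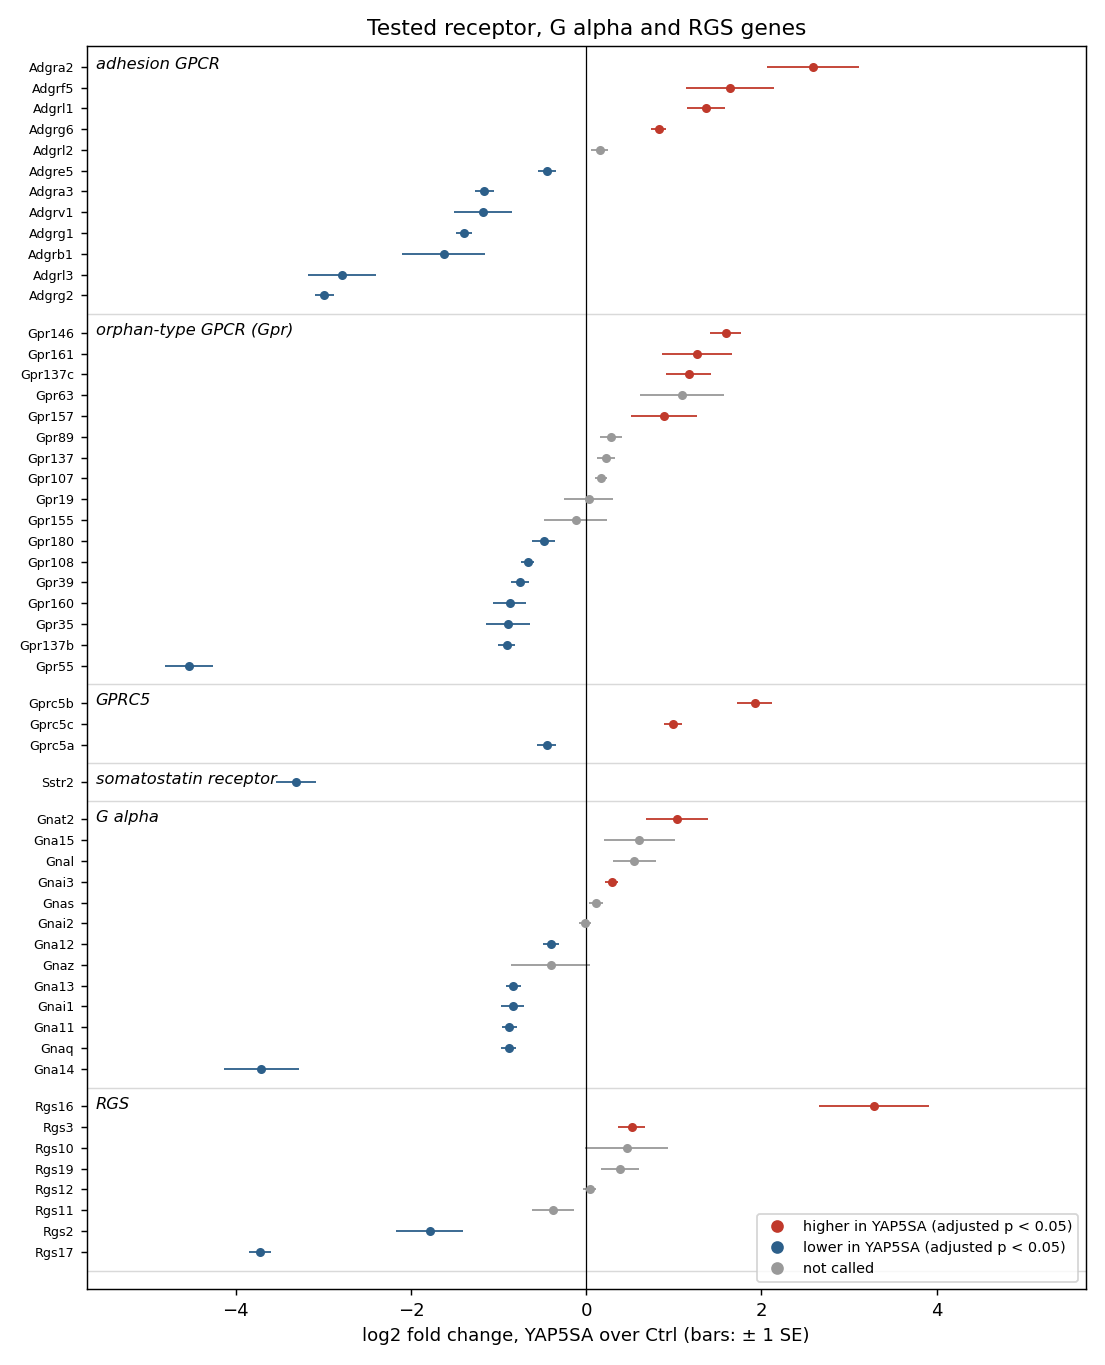
Log2 fold changes, YAP5SA over Ctrl, of tested genes by family (x axis; bars are 1 SE, 4 libraries a group; red higher, blue lower, grey not called). The calls shown run from Rgs16 at 3.29 to Gpr55 at -4.54, and every family with more than 1 tested gene holds calls in both directions.

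The G alpha subunits stand at the centre of the set. Of 17 rows 13 were tested, 2 rose and 6 fell, a called share of 61.5%, near the 64.5% of all genes. Higher calls made up 15.4% against 33.1% of all genes, and lower calls 46.2% against 31.3%. Gnaq, Gna11 and Gna14 of the Gq class and Gna12 and Gna13 of the G12 class fell, while Gnai2 and Gnai3, which had the highest levels per length, did not. Gnaq, which encodes the ubiquitous Gq subunit, had 77.6, 76.7, 78.4 and 77.6 CPM in YAP5SA replicates 1 to 4, against 120.4, 164, 141 and 148 CPM in Ctrl replicates 1 to 4. Its close relative Gna11 had 64.4, 65.5, 79.6 and 79.5 CPM in YAP5SA, against 133, 128, 126 and 144 CPM in Ctrl. Neither gene's groups overlapped, and the fold changes were nearly equal, at -0.88 (SE 0.09, edgeR adjusted p = 8.25e-07) and -0.88 (SE 0.09, edgeR adjusted p = 1e-06). Gna14, a Gq-class subunit with narrower expression, had 0.318, 0.624, 0.693 and 0.137 CPM in YAP5SA, against 4.74, 6.04, 8.92 and 3.07 CPM in Ctrl. That was the steepest fall of any alpha subunit, at -3.71 (SE 0.43, edgeR adjusted p = 3.71e-06). Gna15, the remaining member of the class and best known from blood cells, was at 0.945 ± 0.463 CPM in YAP5SA and 0.613 ± 0.184 CPM in Ctrl and was not called (edgeR adjusted p = 0.203).

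The 4 genes of the Gq class form neighbouring pairs in the genome, Gnaq with Gna14 and Gna11 with Gna15, so the stretch before each gene's start is shown for comparison. Each is the 250 bases upstream of the start in RefSeq's annotation of GRCm38.p6, read 5′ to 3′ on the gene's strand, at chr19:16132434-16132683 (plus), chr19:16435417-16435666 (plus), chr10:81545163-81545412 (minus) and chr10:81524226-81524475 (minus). Capitals mark CATTCC, the reverse complement of GGAATG, the core that TEAD factors, the DNA-binding partners of YAP, recognise.
Gnaq: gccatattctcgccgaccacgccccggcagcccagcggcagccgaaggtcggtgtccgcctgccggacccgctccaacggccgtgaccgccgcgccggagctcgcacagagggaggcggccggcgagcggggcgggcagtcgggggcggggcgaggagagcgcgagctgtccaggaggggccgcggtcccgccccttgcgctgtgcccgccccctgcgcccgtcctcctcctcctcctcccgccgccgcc
Gna14: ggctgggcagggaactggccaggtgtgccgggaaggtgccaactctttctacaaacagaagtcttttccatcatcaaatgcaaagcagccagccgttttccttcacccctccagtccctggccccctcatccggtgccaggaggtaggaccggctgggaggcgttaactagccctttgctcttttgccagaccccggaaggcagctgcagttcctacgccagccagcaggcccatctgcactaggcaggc
Gna11: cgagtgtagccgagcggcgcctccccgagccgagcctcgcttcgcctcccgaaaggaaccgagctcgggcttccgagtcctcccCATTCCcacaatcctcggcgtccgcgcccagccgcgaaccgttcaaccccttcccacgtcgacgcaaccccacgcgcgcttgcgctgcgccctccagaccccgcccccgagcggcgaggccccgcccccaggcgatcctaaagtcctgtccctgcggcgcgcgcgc
Gna15: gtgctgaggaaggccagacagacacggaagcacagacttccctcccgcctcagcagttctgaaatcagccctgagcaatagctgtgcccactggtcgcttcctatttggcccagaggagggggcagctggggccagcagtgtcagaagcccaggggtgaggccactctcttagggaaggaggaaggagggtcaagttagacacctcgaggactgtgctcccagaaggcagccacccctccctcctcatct

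The Gnaq and Gna11 stretches had 79.2% and 73.2% G and C with 37 and 38 CpG dinucleotides, and those of Gna14 and Gna15 had 60% and 60.4% with 7 and 4, where the median of all stretches of this length is 52.4% and 6. GGAATG on either strand was found in the Gna11 stretch and in none of the other three. Over all genes 12.6% of 32851 stretches hold it, against 2 of 17 stretches of members that rose, 2 of 25 of those that fell, 2 of 25 of tested members not called and 5 of 67 of members not tested; a gene can have several starts. These matches describe letters only.

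G12-class subunits, which link receptors to RhoA, fell as well. Gna13 had 52.9, 58.6, 63.1 and 59.5 CPM in YAP5SA, against 90.5, 113, 107 and 107 CPM in Ctrl (log2 fold change -0.83, SE 0.09, edgeR adjusted p = 1.26e-06). Gna12 had 23.2, 25.2, 27.3 and 24.9 CPM in YAP5SA, against 35.1, 33.4, 30.9 and 33.7 CPM in Ctrl (-0.40, SE 0.09, edgeR adjusted p = 0.00113). In both genes all YAP5SA libraries lay below all Ctrl libraries.

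Gi-class genes went different ways. Gnai3 had 299.8, 318, 288 and 349.6 CPM in YAP5SA, against 252, 261, 248 and 267 CPM in Ctrl, a small rise of 0.29 (SE 0.07, edgeR adjusted p = 0.00369). Gnai1 had 17.2, 15.0, 14.3 and 21.3 CPM in YAP5SA, against 31.1, 27.2, 28.8 and 34.4 CPM in Ctrl (-0.84, SE 0.13, edgeR adjusted p = 5.98e-05). Gnai2 was at 365 ± 19.3 CPM in YAP5SA and 368 ± 21.5 CPM in Ctrl and was not called (-0.01, edgeR adjusted p = 0.895), but was at 0.16 and called with library size scaling (edgeR adjusted p = 0.0448). Gnat2, the cone transducin subunit, rose by 1.04 at a low level (1.71 ± 0.532 CPM in YAP5SA and 0.827 ± 0.319 CPM in Ctrl, edgeR adjusted p = 0.0189). Its call ended without YAP5SA replicate 2 (0.84, adjusted p = 0.0732), Ctrl replicate 1 (0.84, 0.0597) or Ctrl replicate 4 (0.90, 0.0567). Gnaz was at -0.41 (edgeR adjusted p = 0.448). The Gs subunit gene Gnas was at 214 ± 2.26 CPM in YAP5SA and 198 ± 17.7 CPM in Ctrl (0.11, edgeR adjusted p = 0.204), and was called higher at 0.29 (adjusted p = 0.00214) with library size scaling. Gnal, a Gs-class subunit of olfactory neurons, was at 0.55 (edgeR adjusted p = 0.0627).

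To compare levels between genes, CPM were divided by the length of each gene's merged exons in kilobases. On that scale Gi-class genes made up 73.4% to 76.1% of the summed alpha subunit level in the YAP5SA libraries and 64.5% to 65.6% in the Ctrl libraries. Gq-class genes made up 11.2% to 12.4% in YAP5SA and 19.7% to 20.2% in Ctrl, and G12-class genes 5.79% to 6.78% in YAP5SA and 8.88% to 9.13% in Ctrl. Gs-class genes made up 6.81% to 7.60% in YAP5SA and 5.74% to 6.37% in Ctrl. The groups overlapped in none of the 4 shares, but these are parts of a whole, so a fall in some raises the others. Summed levels in CPM per kilobase were 199 ± 12.5 in YAP5SA and 187 ± 7.62 in Ctrl for Gi. They were 19.4 ± 0.204 in YAP5SA and 17.9 ± 1.62 in Ctrl for Gs. For Gq they were 30.8 ± 2.08 in YAP5SA and 57.5 ± 3.10 in Ctrl, and for G12 16.5 ± 1.14 and 26.0 ± 1.27. The merged exons of Gnas, 11.2 kb, include long alternative transcripts, which lowers its level per length. That also lowers the Gs share, raises the other shares and affects the rank of Gnas among the alpha subunits. Gnas also overlaps antisense genes whose reads could not be separated.

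**Figure D2:**
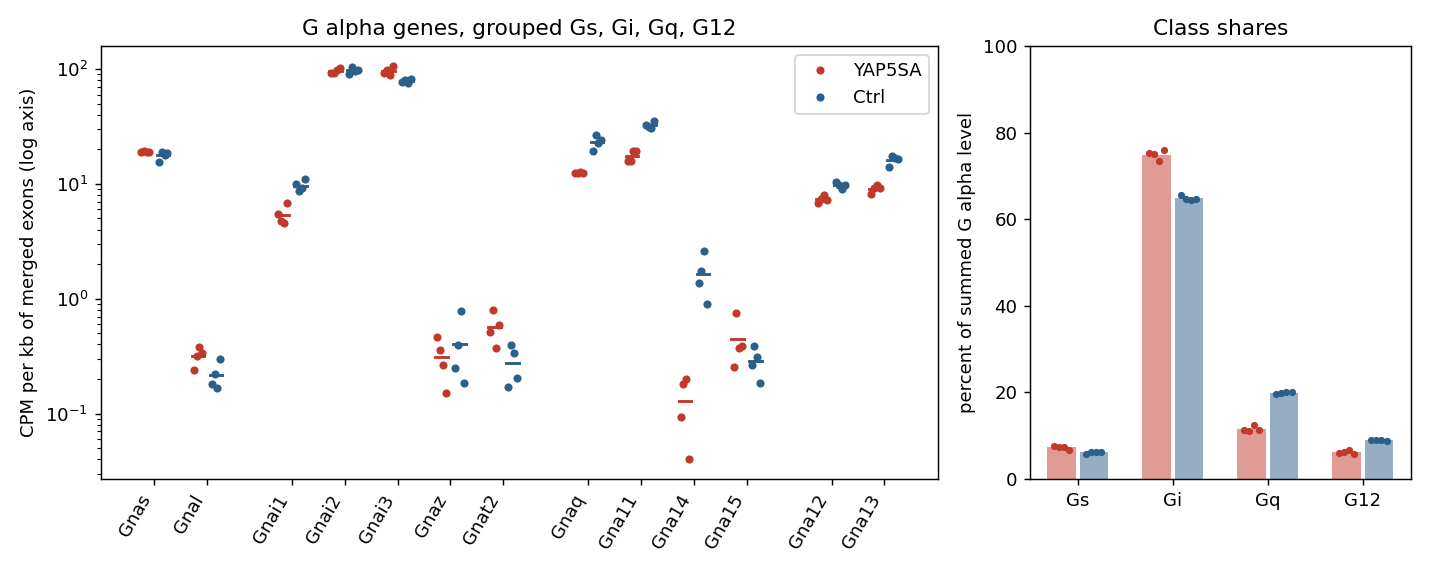
Left, level per length of each tested G alpha gene (CPM per kilobase of merged exons, log axis; points are libraries, lines means), grouped as Gs, Gi, Gq and G12. Right, each class as a percent of the summed level (bars are means of 4 libraries, points libraries): the Gq share was 11.2% to 12.4% in YAP5SA and 19.7% to 20.2% in Ctrl.

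Of 21 RGS genes, 8 were tested, 2 rose, 2 fell and 4 were not called, a called share of 50% of few genes beside 64.5% of all genes. Rgs17, of the RZ group that acts on Gi and Gz subunits, had 2.91, 2.86, 3.52 and 3.01 CPM in YAP5SA, against 46.8, 40.0, 35.6 and 40.6 CPM in Ctrl. The groups were far apart, at -3.73 on the log2 scale (SE 0.13, edgeR adjusted p = 1.75e-11), a 13.2-fold lower level. Its relative Rgs19 was at 6.09 ± 0.712 CPM in YAP5SA and 4.66 ± 1.504 CPM in Ctrl and was not called (0.38, edgeR adjusted p = 0.141). Per length Rgs17 was at 0.370 ± 0.0364 CPM per kilobase in YAP5SA, below the other tested RGS genes except Rgs2, and at 4.91 ± 0.555 in Ctrl, second there to Rgs12.

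The R4 group, most of whose members are small proteins with little more than the RGS domain, split. Rgs2, which acts preferentially on Gq, had 0.500, 0.728, 0.320 and 1.05 CPM in YAP5SA, against 3.38, 1.48, 2.42 and 1.79 CPM in Ctrl (-1.79, SE 0.39, edgeR adjusted p = 0.00102). Rgs16 had 1.32, 0.989, 1.599 and 1.003 CPM in YAP5SA, against 0, 0.296, 0 and 0.223 CPM in Ctrl (3.29, SE 0.63, edgeR adjusted p = 0.000407), and was at 4.03 without Ctrl replicate 2. Rgs3 had 9.99, 12.7, 12.4 and 8.85 CPM in YAP5SA, against 6.88, 7.997, 8.80 and 6.87 CPM in Ctrl (0.52, SE 0.16, edgeR adjusted p = 0.00954), with the lowest YAP5SA library just above the highest Ctrl library. Rgs5, a gene best known from pericytes, failed the filter with 4 counts over the YAP5SA and 41 over the Ctrl libraries. By library totals without TMM factors that was a ratio of 0.103 (exact 95% counting interval 0.0268 to 0.284). Markers of smooth muscle and pericytes summed to 12.9 to 21.6 CPM in YAP5SA and 12.2 to 15.2 CPM in Ctrl, nearly all of it Notch3. Of the others, Rgs12 was at 57.2 ± 2.51 CPM in YAP5SA and 55.7 ± 2.42 CPM in Ctrl (0.04, edgeR adjusted p = 0.655), and Rgs10 and Rgs11 were not called (adjusted p = 0.412 and 0.185). Rgs1, Rgs13, Rgs18 and Rgs21 had no counts.

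**Figure D3:**
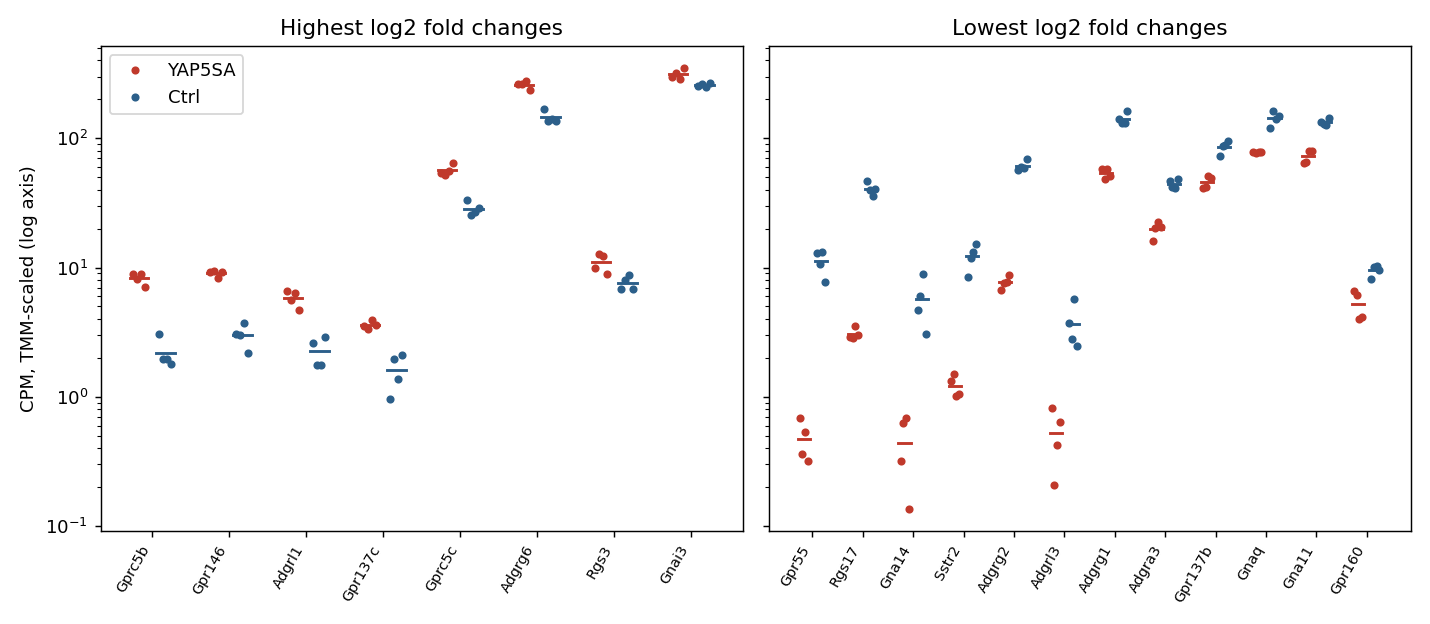
CPM (log axis) in each library for the members with the highest (left, 8 genes) and lowest (right, 12 genes) log2 fold changes among called members whose groups did not overlap and whose mean log2 CPM was at least 1. Points are libraries and lines means of 4: Gprc5b lay at 7.07 to 8.99 CPM in YAP5SA and 1.79 to 3.05 CPM in Ctrl, and Rgs17 at 2.86 to 3.52 CPM in YAP5SA and 35.6 to 46.8 CPM in Ctrl.

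Adhesion receptors were called in 11 of the 12 tested (91.7%, against 64.5% of all genes). Of the 12, 4 were higher (33.3%, against 33.1% of all genes) and 7 lower (58.3%, against 31.3%), and they changed within single subfamilies in opposite directions. Adgrg6, which binds collagen IV and is known for its role in Schwann cell myelination, had 261, 263, 277 and 237 CPM in YAP5SA, against 169.7, 137, 142 and 137 CPM in Ctrl. It rose by 0.83 (SE 0.08, edgeR adjusted p = 1.21e-06). Among 34 tested receptor genes it ranked second per length in YAP5SA, at 21.2 ± 1.35 CPM per kilobase, and seventh in Ctrl, at 11.96 ± 1.30. Adgrg1, which binds collagen III and transglutaminase and couples to G12 and G13, had 58.0, 48.2, 58.4 and 51.4 CPM in YAP5SA, against 141, 132, 132 and 163 CPM in Ctrl (-1.39, SE 0.09, edgeR adjusted p = 1.34e-08). Adgrg2, best known from the epididymis, fell further, with 6.68, 7.60, 7.78 and 8.76 CPM in YAP5SA, against 57.3, 59.8, 58.6 and 69.5 CPM in Ctrl (-2.99, SE 0.11, edgeR adjusted p = 3.31e-11). Adgrg2 is the only tested member on the X chromosome, and RNA of sex-linked genes differed between the groups as given above.

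The latrophilins, receptors for teneurins and FLRT proteins, also separated. Adgrl1 had 6.54, 5.62, 6.39 and 4.70 CPM in YAP5SA, against 2.60, 1.78, 1.75 and 2.90 CPM in Ctrl (1.37, SE 0.22, edgeR adjusted p = 8.66e-05). Adgrl3 had 0.817, 0.208, 0.426 and 0.639 CPM in YAP5SA, against 3.72, 2.78, 5.71 and 2.46 CPM in Ctrl (-2.79, SE 0.39, edgeR adjusted p = 2.31e-05). Adgrl2 was at 56.1 ± 5.66 CPM in YAP5SA and 50.4 ± 5.65 CPM in Ctrl and was not called (0.15, edgeR adjusted p = 0.193).

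In the Adgra pair, Adgra2, a WNT7 co-receptor of brain endothelium, had 1.95, 2.03, 1.76 and 0.775 CPM in YAP5SA, against 0.621, 0.0592, 0.125 and 0.279 CPM in Ctrl (2.59, SE 0.53, edgeR adjusted p = 0.000642), and was at 3.32 without Ctrl replicate 1. Adgra3 had 16.2, 20.4, 22.4 and 20.7 CPM in YAP5SA, against 46.7, 42.1, 41.2 and 48.8 CPM in Ctrl (-1.17, SE 0.11, edgeR adjusted p = 4.68e-07). Adgrf5, known from lung alveolar cells and endothelium, rose by 1.64 (SE 0.50, edgeR adjusted p = 0.0112) with groups that overlapped, while the endothelial receptor gene Adgrl4 had no counts. The CD55 receptor gene Adgre5 (CD97) fell by 0.45 (SE 0.10), Adgrv1 fell by 1.18 (SE 0.33) and Adgrb1 fell by 1.63 (SE 0.47) on the log2 scale. Adgre5 shares 23.8% of its merged exon bases with an opposite-strand gene, so its value is uncertain.

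Genes for known ligands and partners of these receptors were read from a list of 18, of which 9 were tested, 4 higher and 2 lower, with a median of 0.35. The 6 of 9 called are near the 64.5% of all genes, of which 33.1% were higher and 31.3% lower. The collagen IV genes Col4a1 and Col4a2 were far higher in YAP5SA: Col4a1 was at 462 ± 13.7 CPM in YAP5SA and 27.3 ± 3.07 CPM in Ctrl (4.08, SE 0.09, edgeR adjusted p = 5.87e-13), and Col4a2 was at 705 ± 38.4 CPM in YAP5SA and 30.3 ± 6.15 CPM in Ctrl (4.54, SE 0.13, edgeR adjusted p = 3.58e-12). Flrt2 rose by 4.46 (SE 0.34), and Prnp, which encodes the prion protein, an Adgrg6 ligand, by 2.01 (SE 0.09). The X-linked teneurin gene Tenm1 fell by 2.57 and the transglutaminase gene Tgm2 by 0.51 on the log2 scale. Flrt3 and Cd55 were not called, at 0.08 and 0.04 (edgeR adjusted p = 0.359 and 0.615).

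Orphan-type receptors were the largest family. Of 76 genes, 18 were tested, 5 rose and 7 fell, so 66.7% were called, near the share of all genes. Gpr55, a receptor for lysophosphatidylinositol, had 0.681, 0.364, 0.533 and 0.319 CPM in YAP5SA, against 12.98, 10.7, 13.3 and 7.71 CPM in Ctrl, a 23.2-fold lower level (-4.54, SE 0.27, edgeR adjusted p = 4.75e-09). The highest YAP5SA library lay far below the lowest Ctrl library.

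Gpr146, linked to plasma cholesterol in mice, had 9.31, 9.42, 8.31 and 9.30 CPM in YAP5SA, against 3.05, 3.02, 3.71 and 2.18 CPM in Ctrl (1.59, SE 0.18, edgeR adjusted p = 2.65e-06). Gpr161, a ciliary receptor that represses Hedgehog signalling, rose by 1.26 (SE 0.40, edgeR adjusted p = 0.0128) at 0.951 ± 0.250 CPM in YAP5SA and 0.387 ± 0.157 CPM in Ctrl. Gpr157 was called at 0.89 (edgeR adjusted p = 0.0496), and not called under 13 of the 16 alternative settings that tested it, the lowest value being 0.62 (adjusted p = 0.186) without YAP5SA replicate 3. The 3 Gpr137 genes differed: Gpr137c had 3.54, 3.33, 3.94 and 3.60 CPM in YAP5SA, against 0.959, 1.95, 1.38 and 2.12 CPM in Ctrl (1.17, SE 0.26, edgeR adjusted p = 0.00112). The lysosomal Gpr137b had 41.4, 42.1, 51.1 and 49.4 CPM in YAP5SA, against 73.2, 86.8, 89.4 and 95.6 CPM in Ctrl (-0.91, SE 0.10, edgeR adjusted p = 2.33e-06), and Gpr137 was at 0.22 (adjusted p = 0.0789). Gpr137c shares 1.81% of its exon bases with Txndc16, on the opposite strand, which was at 3.30.

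Gpr35, a mucosal receptor proposed to sense kynurenic acid, was at 15.1 ± 5.17 CPM in YAP5SA and 27.8 ± 8.15 CPM in Ctrl (-0.89, SE 0.25, edgeR adjusted p = 0.00645), with overlapping groups. The zinc-sensing receptor gene Gpr39 had 24.4, 21.9, 25.7 and 25.7 CPM in YAP5SA, against 40.3, 36.1, 48.0 and 39.8 CPM in Ctrl (-0.75, SE 0.10, edgeR adjusted p = 1.99e-05). It shares 39.9% of its exon bases with the opposite-strand gene Lypd1, which had 28 counts over the YAP5SA and 33 over the Ctrl libraries. Gpr160 had 6.54, 6.09, 3.997 and 4.15 CPM in YAP5SA, against 8.12, 10.2, 10.2 and 9.61 CPM in Ctrl (-0.88, SE 0.18, edgeR adjusted p = 0.000802). The Golgi-associated Gpr108 fell by 0.67 (SE 0.07) and Gpr180 by 0.49 (SE 0.14) on the log2 scale, while Gpr107 and the Golgi pH regulator gene Gpr89 were at 0.17 and 0.28 and not called (edgeR adjusted p = 0.0561 and 0.0713). Gpr63, Gpr155 and Gpr19 were not called either (1.10, -0.12 and 0.03; edgeR adjusted p = 0.0595, 0.785 and 0.939). With limma-voom Gpr63 and Gpr89 were called higher (1.26 and 0.30; adjusted p = 0.0376 and 0.0488), as they were without Ctrl replicate 1 (1.63 and 0.40; adjusted p = 0.0112 and 0.00587). The Gpr180 call ended with library size scaling (-0.31, adjusted p = 0.0555).

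The GPRC5 receptors, first described as induced by retinoic acid, split 2 against 1. Gprc5a was the most abundant tested receptor of the set per length in both groups, at 136 ± 13.8 CPM per kilobase in YAP5SA and 186 ± 31.2 in Ctrl. Its libraries had 269.7, 253, 290.2 and 320.1 CPM in YAP5SA, against 329, 381, 359 and 479 CPM in Ctrl (-0.45, SE 0.11, edgeR adjusted p = 0.00259). Gprc5c had 54.0, 52.4, 55.8 and 64.7 CPM in YAP5SA, against 33.1, 25.6, 26.7 and 28.9 CPM in Ctrl (0.99, SE 0.10, edgeR adjusted p = 1.13e-06). Gprc5b had 8.99, 8.17, 8.95 and 7.07 CPM in YAP5SA, against 3.05, 1.95, 1.96 and 1.79 CPM in Ctrl (1.92, SE 0.20, edgeR adjusted p = 1.34e-06). All 3 were called, against 64.5% of all genes, and none overlapped between groups, which held for 58.7% of all genes. Gprc5b shares 13.1% of its exon bases with the opposite-strand gene Iqck, which was at 1.14, and Gprc5d had 1 count in all.

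Of the somatostatin receptors only Sstr2, through which somatostatin restrains acid secretion, was tested. It had 1.32, 1.51, 1.01 and 1.05 CPM in YAP5SA, against 8.41, 11.8, 13.3 and 15.3 CPM in Ctrl (-3.31, SE 0.23, edgeR adjusted p = 1.77e-08), about 9.95-fold lower. Sstr1, Sstr3 and Sstr5 had no counts and Sstr4 had 4. Parietal cell markers summed to 3.85 to 6.16 CPM in YAP5SA and 3.02 to 5.30 CPM in Ctrl, with 14 counts in all for the proton pump gene Atp4b, and the somatostatin gene Sst itself had no counts.

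Other genes of the signalling chain were read from fixed lists, beside the 64.5% of all genes called. Gq effectors split: of 3 tested phospholipase C beta genes Plcb3 was at 51.5 ± 6.07 CPM in YAP5SA and 110 ± 8.18 CPM in Ctrl (-1.10, SE 0.09, edgeR adjusted p = 1.72e-07), and Plcb4 was at 9.18 ± 1.57 CPM in YAP5SA and 1.87 ± 0.398 CPM in Ctrl (2.29, SE 0.21, edgeR adjusted p = 3.24e-07). Of 8 tested genes for RhoA-type GTPases and their exchange factors 4 fell and 1 rose (median -0.34). Of the exchange factors that bind active G12 and G13 subunits, Arhgef12 and Arhgef11 fell by 0.64 (SE 0.08) and by 0.65 (SE 0.11) on the log2 scale. Arhgef1, which binds them too, was at 0.08 and was not called. Akap13 fell by 0.67 (SE 0.09) and Rhoc fell by 1.06 (SE 0.09) on the log2 scale. Rhoa was at 0.05 and was not called.

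Adenylyl cyclase genes were called in 4 of 5 tested, 3 lower and 1 higher (median -1.27). The calls of Adcy3 (1.17) and Adcy8 (-1.27) did not hold throughout when single libraries were left out. Their highest edgeR adjusted p values were then 0.0508 and 0.0894. Adcy6 was at 34.7 ± 3.56 CPM in YAP5SA and 85.9 ± 10.2 CPM in Ctrl (-1.31, SE 0.10, edgeR adjusted p = 7.55e-08). Downstream of cyclic AMP, 5 of 10 genes of protein kinase A and EPAC rose and 2 fell (median 0.22). The kinase inhibitor gene Pkia and the EPAC gene Rapgef3 rose by 3.08 (SE 0.22) and 3.13 (SE 0.33), and the regulatory subunit genes Prkar2b and Prkar2a fell by 1.75 (SE 0.14) and by 1.04 (SE 0.09). Of 8 tested phosphodiesterase genes 4 rose and 3 fell (median 0.70, also with Pde4b at its bound), with Pde8a at -2.56 (SE 0.28) and Pde7a at 0.58 (SE 0.09). Pde4b had 27, 48, 63 and 13 counts in YAP5SA replicates 1 to 4 and none in Ctrl. By library totals without TMM factors it was at least 53.1-fold higher with a floor of 3 counts over the group.

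Beta and gamma subunit genes rose in 5 of 8 tested and fell in none (median 0.58, also with Gng2 at its bound). That is few genes, beside 33.1% higher and 31.3% lower among all genes. Gnb5, whose product pairs with R7-group RGS proteins, rose by 1.43 (SE 0.11), Gng10 by 0.97 (SE 0.22) and Gng5 by 0.19 (SE 0.07, edgeR adjusted p = 0.0295). The Gng5 call did not hold throughout when single libraries were left out. Its lowest value was 0.11, without Ctrl replicate 1, and its highest edgeR adjusted p was 0.146. Gng2 had 43, 60, 23 and 16 counts in the YAP5SA libraries and none in Ctrl. By library totals without TMM factors it was at least 49.9-fold higher with the same floor. Gnb1, Gnb2 and Gng12 were not called. Of 11 tested genes for receptor kinases and arrestins, alpha-arrestins included, 8 fell and 2 rose (median -0.60). Over all genes 31.3% were called lower and 33.1% higher. Arrb2 fell by 1.03 (SE 0.14), Arrb1 by 0.55 (SE 0.14), Grk6 by 0.98 (SE 0.11), Grk3 by 3.45 (SE 0.42) and the alpha-arrestin gene Arrdc1 by 0.87 (SE 0.09), while Arrdc3 rose by 1.20 (SE 0.13). Among accessory proteins 2 of 6 rose and 2 fell (median -0.39). Ramp1, the partner of the CGRP receptor, rose by 3.12 (SE 0.18) and Gpsm1 by 1.64 (SE 0.18), and Ric8a, a chaperone of alpha subunits, and Gpsm2 fell by 0.80 (SE 0.09) and by 0.73 (SE 0.10).

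Receptors with known ligands gave a mixed picture. Of 9 tested LPA, S1P and protease-activated receptors 3 rose and 3 fell (median 0.16). F2r, the thrombin receptor, was at 460 ± 12.7 CPM in YAP5SA and 110 ± 20.4 CPM in Ctrl (2.07, SE 0.11, edgeR adjusted p = 1.51e-09), and F2rl2 rose by 3.44 (SE 0.55), or by 4.20 without Ctrl replicate 4. The lysophosphatidic acid receptors Lpar1 and Lpar2 fell by 2.26 (SE 0.17) and by 1.02 (SE 0.13). Of 24 gastric hormone, amine and prostanoid receptors only 3 were tested. Ptger4, a prostaglandin E receptor, was at 3.96 ± 0.176 CPM in YAP5SA and 16.0 ± 1.97 CPM in Ctrl (-2.01, SE 0.14, edgeR adjusted p = 1.91e-08), Glp1r fell by 2.43 (SE 0.43), and Chrm3 was not called. The gastrin receptor gene Cckbr and the ghrelin receptor gene Ghsr had no counts.

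**Figure D4:**
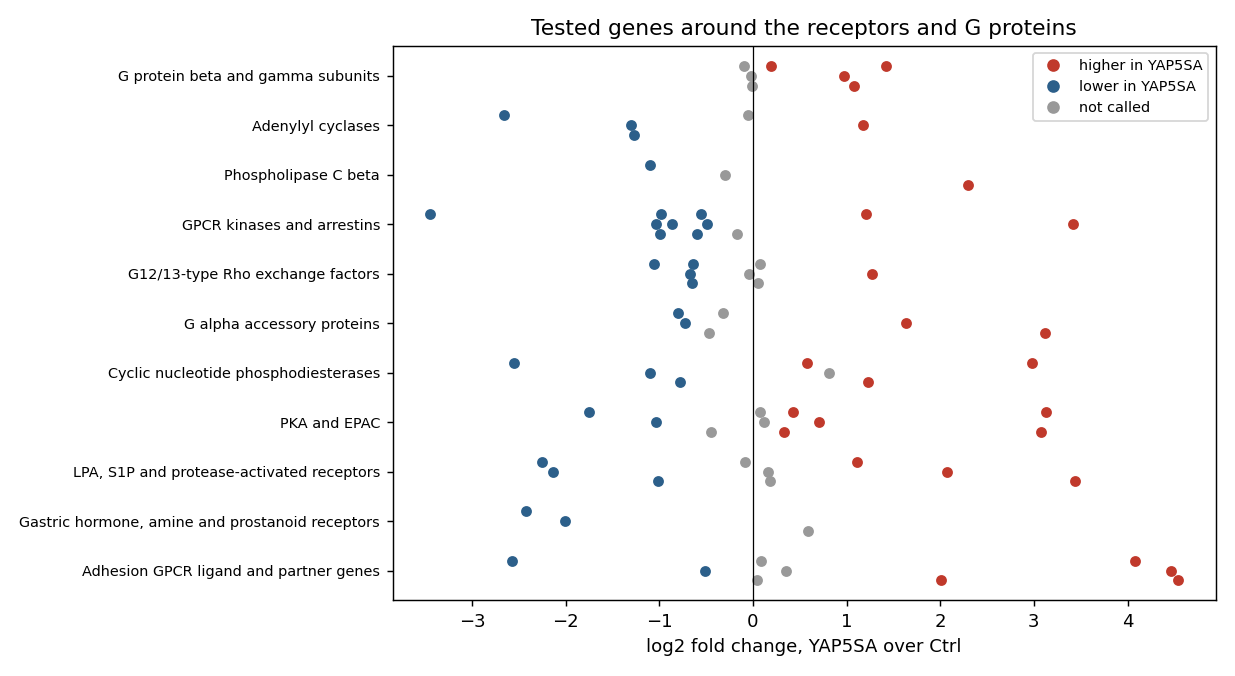
Log2 fold change, YAP5SA over Ctrl (x axis), of each tested gene of 11 lists around the receptors and G proteins (rows; red higher, blue lower, grey not called; Gng2 and Pde4b, without Ctrl counts, are left out). Of 11 tested kinases and arrestins 8 were lower, and of 8 tested beta and gamma subunit genes none was lower, beside 31.3% of all genes.

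The 61 members with counts under the filter were described by counts alone. Of these, 28 had at least 10 counts in all, and for 13 the exact 95% counting interval of the ratio excluded 1 or 1 group had no count, 9 of them higher in YAP5SA and 4 lower. Ratios, intervals and fold bounds use library totals without TMM factors, and the intervals leave out the spread between libraries. The same share was not computed for other genes under the filter, so these counts say nothing particular about the members. Gpr141, a receptor of myeloid cells, had 7, 14, 0 and 14 counts in YAP5SA replicates 1 to 4 and none in Ctrl, at least 12.3-fold higher with a floor of 3 counts over the group. Leukocyte markers summed to 33.1 to 43.6 CPM in YAP5SA and 9.25 to 18.6 CPM in Ctrl, most of it the lysosomal gene Cd68. Itgam had 53 counts in YAP5SA and 5 in Ctrl, Ptprc 3 and 15, and Tyrobp none, and their part in the Gpr141 counts was not tested. Adgrf4 had 31 counts in YAP5SA and 3 in Ctrl (ratio 10.9, interval 3.40 to 55.7). Gnat3, the gustducin subunit of taste and tuft cells, had 24 in YAP5SA and 6 in Ctrl (ratio 4.22, interval 1.68 to 12.6), while the tuft factor gene Pou2f3 had 2 and 5 counts. Of 4 tested tuft markers, Dclk1, Ptgs1 and Trpm5 rose by 4.98, 3.49 and 1.14 on the log2 scale and Avil fell by 4.17. The list of 8 summed to 63.6 to 69.5 CPM in YAP5SA and 134 to 204 CPM in Ctrl, where Avil alone averaged 165 CPM, and Sh2d6 had no counts. Their part in the Gnat3 counts was not tested. Gpr52 had 0 counts in YAP5SA and 10 in Ctrl (at least 3.16-fold lower). Among the members at 0 everywhere were Gpr183, Gpr65, Gpr84 and Adgre1, receptors of immune cells. In a single library 3 counts equal 0.116 to 0.173 CPM by its total, whereas the fold bounds take the floor of 3 counts over a whole group.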

How the data were processed

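RNA of 8 organoid libraries was measured by paired-end sequencing. The deposited table holds unnormalized counts, one whole number for each gene in each library. Per the submitters' processing notes, the tools were HISAT2 2.0.1, HTSeq 0.6.1 and cutadapt, and the build mm9. Which annotation and strand setting were used is not given in the sources used here, so reads of overlapping genes on opposite strands could not be told apart.

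The whole table was tested in R 4.3.3 with edgeR 4.0.16: filterByExpr (minimum count 10, minimum total 15), TMM scaling and the quasi-likelihood F test of YAP5SA against Ctrl with no covariate, two-sided, with Benjamini-Hochberg adjustment over all 13812 genes tested and a threshold of 0.05. The SE of a log2 fold change was its size over the root of its F value. The common biological coefficient of variation came to 0.127. No pair of replicates agreed within sampling noise (chi-square per degree of freedom 4.94 to 38.3). The procedure was tested on simulated data. Floors are 3 counts, and counting intervals are exact (Clopper-Pearson, 95%). Without molecular identifiers, both reflect counting error only. Fold bounds, count ratios and their intervals use library totals without TMM factors. These factors were 1.04 to 1.08 in YAP5SA and 0.920 to 0.974 in Ctrl, so TMM scaling would give lower values of YAP5SA over Ctrl.

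Exon lengths and overlaps came from GENCODE M21 (GRCm38), where 147 of 150 members had a unique length, and upstream sequences from RefSeq (GRCm38.p6), where 104 members had an entry. Coordinates are therefore not those of the counting build.

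Genes named with a value in every library are the called members with non-overlapping groups and a mean log2 CPM of at least 1, up to 12 in each direction, of which 9 rose. All tested Gna, Gprc5, Sstr and Rgs genes were added, with uncalled members at a mean log2 CPM of at least 3, members under the filter with at least 10 counts, and up to 4 genes of each list by p. Any other gene was picked with its values in view. Some members that the rule takes are not reported here. The members and lists were chosen with earlier results of these data known.

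Alternatives were DESeq2 1.42.0, limma-voom (limma 3.58.1), RLE or library size scaling, no filter, a filter at 1 CPM in at least 4 libraries, a block for the replicate number, leaving out genes above 1% of a library and leaving out each library. A fit without X- and Y-linked genes was chosen after seeing the data.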

Additional observations from a re-analysis of the deposited data

Results flagged for a closer look

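Among the 42 groups of 4 libraries whose values are given for the highest and lowest members, 3 held a library that stood far from the other three by Dixon's ratio; chance alone flags about 1 in 20 groups. Gprc5b was at 3.05 CPM in Ctrl replicate 1, where the other Ctrl libraries had 1.79 to 1.96 CPM. Adgrg6 was at 169.7 CPM in the same library, where the others had 137 to 142 CPM. Gpr146 was at 8.31 CPM in YAP5SA replicate 3, where the others had 9.30 to 9.42 CPM. In each case the library still lay on its own group's side.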

How the results depend on the processing

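Calls of members were counted under 17 alternative settings. Lower calls numbered 23 to 27 throughout, against 24, and higher calls 12 to 17, against 15, except with library size scaling, which gave 25 higher and 23 lower. The higher count was 13 to 16 and the lower count 24 when single libraries were left out, and all genes called were 8299 to 8972, against 8907. The median log2 fold change of tested members, -0.01, was 0.16 with library size scaling, -0.11 without a filter, -0.41 with 1 CPM in 4 libraries, 0.014 without X- and Y-linked genes, -0.0295 with limma-voom, and -0.10 to 0.0088 when single libraries were left out. The number of members tested changes with the filter, from 47 to 116.

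Changes of sign concerned genes that were not called in the main fit. With library size scaling Gnai2 was at 0.16 and gained a call, and Gpr155 was at 0.053. With limma-voom Gpr19 was at -0.0295. Without single libraries the ranges were -0.0719 to 0.00755 for Gnai2, -0.13 to 0.20 for Gpr19, -0.0017 to 0.0642 for Rgs12 and -0.68 to 0.15 for Gnaz. Without a filter, calls gained included Adgrf4 and Gpr141, higher, and Rgs5 and Gpr52, lower. Except where the library size or filter sets them by construction, the cause was not tested.

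The labels do not say whether replicate numbers pair the samples, and the main fit did not pair them. Same-numbered libraries deviated together with correlations of 0.046 to 0.281, and only replicates 1 and 4 were best matched by their own number. So few values cannot decide whether the numbers are pairs. With the replicate number as a block 16 members were higher and 24 lower: Gpr63 (1.14, adjusted p = 0.0431) and Gpr89 (0.30, adjusted p = 0.0395) gained a call and Gpr157 (0.86, adjusted p = 0.0590) lost it. In that fit the median was -0.01, and 9174 genes were called in all. Genes under about 1 CPM rest on few reads, and 95 of 150 members could not be tested at this depth.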
